A study of Nicotiana tabacum with 8 samples.

Results

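The CONSTANS-like genes of the tomato chromosome 2 cluster, known together as CO1, CO2 and CO3, were followed in tobacco shoot tips exposed to volatiles of the fungus Cladosporium sphaerospermum, strain TC09. The members were taken by their tomato gene numbers, Solyc02g089540, Solyc02g089520 and Solyc02g089500. They are 3 of the 34725 tomato coding sequences in the files, and all 3 were listed in every library. The sources used here do not say which number carries which of the 3 names, so the numbers are used throughout.

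CONSTANS and its relatives are transcriptional regulators with B-box zinc fingers near one end and a CCT domain near the other. In Arabidopsis, CONSTANS measures day length. Its transcript follows the circadian clock, its protein is stabilized by evening light, and in long days it switches on the florigen gene FT in the leaf veins. The genes of the tomato cluster are the closest tomato relatives of CONSTANS and also cycle over the day. Flowering of tomato and of cultivated tobacco such as Samsun depends little on day length.

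The seedlings were Nicotiana tabacum, cultivar Samsun, 6 days old at the start and kept for 10 days in closed vessels of 3 plants on medium with 30 g/L sucrose, at 25°C with 16 h of light and 8 h of dark. The control group (4 libraries) grew without the fungus, and the TC09-exposed group (4 libraries) shared its air with a fungal culture without touching it. Each library holds RNA of apical meristems with the youngest leaves. The labels describe the pooled shoot tips of a vessel, whereas the paper describes single plants, and no source used here gives the hour of harvest. If some libraries of a group shared a vessel they would not be independent exposures, and the p-values treat them as independent. In such bulk tissue, fewer cells that express a gene and less RNA per cell cannot be told apart.

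The libraries held 7853857 to 9674090 total gene reads. Tobacco reads were counted on tomato coding sequences, so a diverged tobacco gene can lose reads, and several tobacco copies can add up under 1 tomato number. Of the 19325 genes that passed the filter on low counts, edgeR called 1847 as higher and 2317 as lower after TC09 exposure (adjusted p of 0.05 or less).

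None of the CONSTANS-like genes passed the test for a difference between TC09-exposed and control seedlings. Solyc02g089540 and Solyc02g089520 passed the filter on low counts, and 0 of these 2 were called, beside 21.5% of all genes tested (edgeR, total gene reads). The unadjusted p was above 0.05 in both, and DESeq2 and limma-voom likewise called 0 of them. Solyc02g089500 had too few reads for the filter. With unique gene reads, which matched only 1 gene, only Solyc02g089540 passed the filter, and 0 members were called beside 21.8% of all genes tested. In total gene reads, the groups of libraries overlapped in Solyc02g089540 and Solyc02g089520, whereas they did not overlap in 25% of the genes tested. The groups also overlapped in Solyc02g089500, which is not among those genes and had 0 to 2 reads a library.

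Solyc02g089540 was the most abundant member. Its 1176 bp coding sequence received 36, 57, 40 and 39 reads in control replicates 1 to 4 and 49, 44, 38 and 24 reads in TC09-exposed replicates 1 to 4. Control replicate 2 was the highest library and exposed replicate 4 the lowest. Scaled to 1000000 reads and normalized by TMM (CPM), its level was 5.09 ± 1.02 in the control and 4.19 ± 1.19 after exposure (mean ± SD, n = 4 each). In CPM, exposed replicates 1 and 2 lay within the control range and exposed replicates 3 and 4 below it. The log2 fold change of -0.28 (standard error, SE, 0.236 by edgeR, adjusted p = 0.426) had a 95% interval from -0.80 to 0.24. As folds of the control, the interval runs from 0.573 to 1.18.

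Solyc02g089520 (1230 bp) varied most between control libraries. It had 32, 12, 22 and 9 reads in control replicates 1 to 4 and 13, 12, 17 and 15 in TC09-exposed replicates 1 to 4. Control replicates 1 and 3 stood above all exposed libraries, and control replicates 2 and 4 lay among or below them. The total gene reads of the control libraries had a coefficient of variation of 55.7%, where counting error alone gives 23.1%. Those of the exposed libraries had 15.6%, where counting error alone gives 26.5%. Of the 75 control reads, 29 matched more than 1 gene. Unique reads spread less, from 8 to 16 a control library against 9 to 32 in total reads. Their coefficient of variation was not computed. The level was 2.27 ± 1.33 CPM in the control against 1.54 ± 0.181 CPM after exposure (mean ± SD, n = 4 each). The log2 fold change was -0.54 (SE 0.399 by edgeR, adjusted p = 0.358), with a 95% interval from -1.43 to 0.34, or from 0.372 to 1.27 as folds of the control. Without control replicate 1, the library with most reads of this gene, the log2 fold change was -0.15.

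Solyc02g089500 (429 bp) was barely detected. Each control library held 1 read of it, and TC09-exposed replicates 1 to 4 held 2, 2, 1 and 0 reads, all of them unique. The 4 control and 5 exposed reads gave a ratio of 1.22, exposed over control, with an exact binomial 95% interval from 0.262 to 6.14 that covers counting error only. In the edgeR fit without a filter, the log2 fold change was 0.18 (SE 0.839 by edgeR, adjusted p = 0.917). A difference in this gene was not detectable at this depth. The 0 reads of exposed replicate 4 allow a level of up to 0.329 CPM (3 reads of the total, without TMM). This upper bound lies above the point values of all other libraries, of which the highest was 0.223 CPM with TMM.

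**Figure D1:**
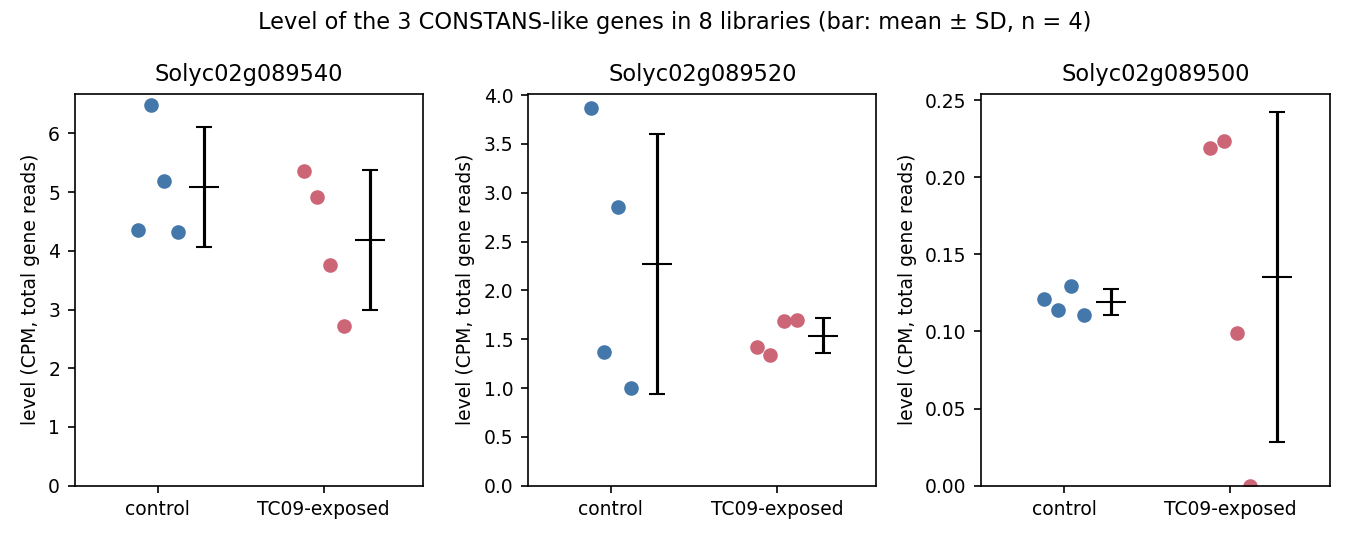
Level of each gene (CPM of total gene reads, 1 point a library, replicates 1 to 4 from left to right; the bar is the mean ± SD, n = 4) in control and TC09-exposed seedlings. The exposed points overlap the control points in every panel, and the vertical scale of Solyc02g089500 stays below 0.25 CPM.

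Compared per coding length, the members kept 1 order in all 8 libraries. TPM divides the reads by coding length and scales each library to the same sum. Over the 8 libraries Solyc02g089540 had 3.73 ± 0.900 TPM, Solyc02g089520 1.45 ± 0.682 TPM and Solyc02g089500 0.286 ± 0.173 TPM (SD, n = 8). Solyc02g089540 lay above Solyc02g089520 in 8 of 8 libraries, although the ranges of 2.07 to 4.79 TPM and 0.770 to 2.79 TPM overlap across libraries. Solyc02g089520 in turn lay above Solyc02g089500 in 8 of 8, and its range did not overlap the 0 to 0.561 TPM of that gene. The same order held in 8 of 8 libraries for unique reads per coding length. The ratio of the first to the second in TPM ranged from 1.18 in control replicate 1 to 4.97 in control replicate 2. All 3 are lowly expressed, since even Solyc02g089540 was exceeded in mean TPM by 15982 of the 26833 genes with at least 1 read.

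The members that could be compared did not differ detectably in their response. The log2 ratio of Solyc02g089540 to Solyc02g089520 in reads was 1.32 ± 0.978 (SD, n = 4) in the control and 1.38 ± 0.585 (SD, n = 4) after exposure. The difference of 0.06 gave p = 0.943 (two-sided exact permutation test over 70 splits, smallest possible p = 0.0286). Shifts from -1.54 to 1.70 on the log2 scale were not rejected at 0.05 by the same test, a wide interval. This was 1 pair of 3, and both pairs with Solyc02g089500 were left out because it had under 10 reads.

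**Figure D2:**
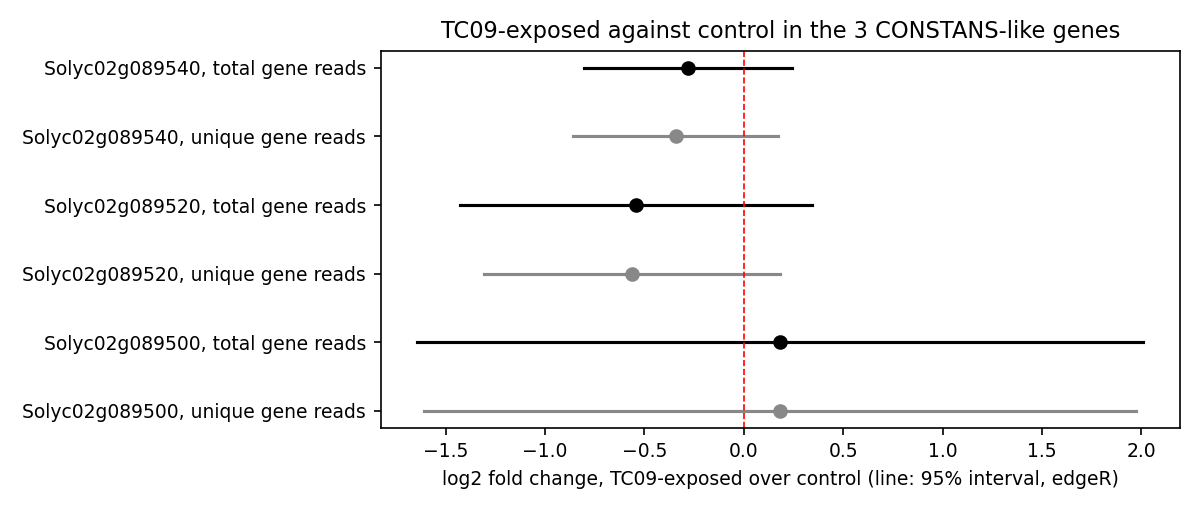
Log2 fold change of each gene, TC09-exposed over control, for total gene reads (black) and unique gene reads (gray), with the 95% interval of the edgeR fit as a line. All 6 intervals include 0, and those of Solyc02g089500, which has 9 reads in all, are the widest.

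A large part of the reads of the abundant members matched more than 1 gene. Such reads made up 35.5% of all reads of Solyc02g089540 (116 of 327) and 39.4% of those of Solyc02g089520 (52 of 132). The median over the genes tested was 0%, and a share at least as large was found in 2.36% and 1.99% of them. The files do not say which genes share these reads, so the 2 genes are uncertain as separate genes. Unique reads of Solyc02g089540 numbered 25, 33, 31 and 24 in the control replicates and 26, 30, 26 and 16 in the exposed replicates. Those of Solyc02g089520 numbered 16, 9, 13 and 8 in the control and 8, 8, 11 and 7 in the exposed replicates. Control replicates 1 and 3 are again the highest libraries of Solyc02g089520, with a smaller lead than in total reads.

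With unique reads the log2 fold change of Solyc02g089540 was -0.34 (SE 0.233 by edgeR, adjusted p = 0.319), with a 95% interval from -0.86 to 0.17. Solyc02g089520 fell below the filter in unique reads. In the fit without a filter its log2 fold change was -0.56 (SE 0.342 by edgeR, adjusted p = 0.315), with a 95% interval from -1.30 to 0.18. The log2 ratio of the 2 genes in unique reads differed between the groups by 0.16 (two-sided exact permutation test, p = 0.600).
The libraries with most non-unique reads of one gene were not those of the other. Control replicate 2 had 24 such reads of Solyc02g089540 and 3 of Solyc02g089520, whereas control replicate 1 had 11 and 16. A read that matches both genes may be counted under either, so this mismatch cannot show whether the 2 genes share reads. Counted together, the 3 members had 69, 70, 63 and 49 reads in the control replicates and 64, 58, 56 and 39 in the exposed replicates. Their summed level was 5.43 to 8.34 CPM in the control and 4.41 to 7.0 CPM in the exposed libraries, and these ranges overlap. This sum was chosen after the values were seen and is a description without a test.

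**Figure D3:**
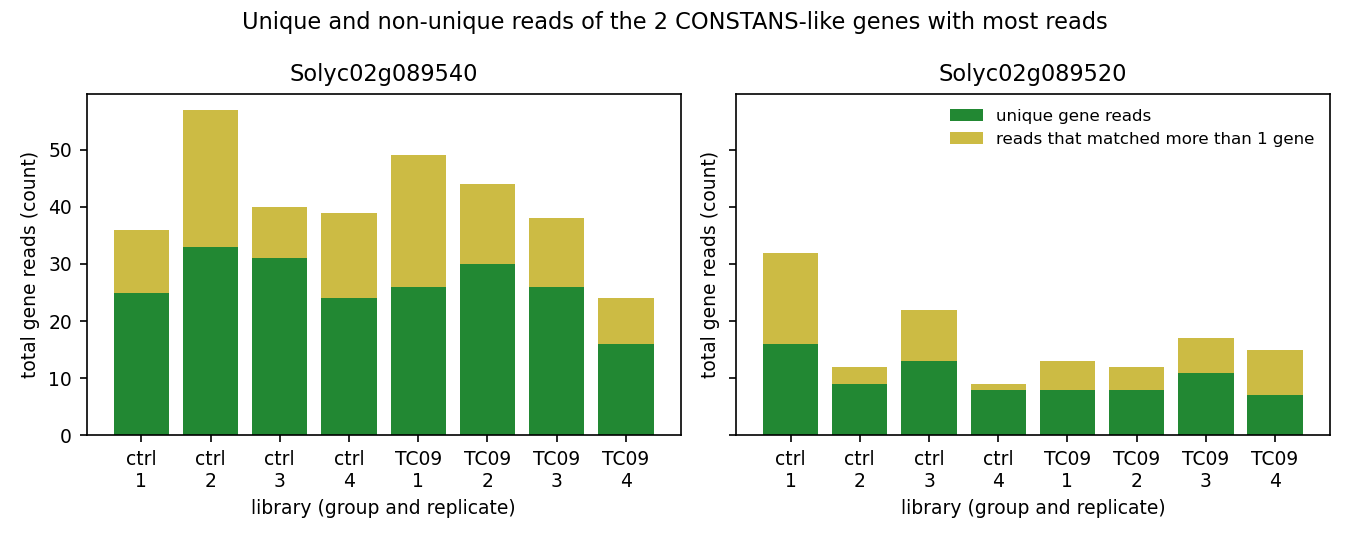
Total gene reads of Solyc02g089540 and Solyc02g089520 in each library, split into unique reads (green) and reads that matched more than 1 gene (yellow). In Solyc02g089520, control replicate 1 holds 16 of each kind and control replicate 4 holds 8 unique reads and 1 other.

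The genes around the cluster were examined in the same fit. Solyc numbers follow the order of genes along the tomato chromosome, and 22 genes with numbers from Solyc02g089400 to Solyc02g089640 surround the 3 members. They carry no names in the files, and whether their tobacco counterparts also lie side by side was not examined. The 2 genes whose numbers fall between the members, Solyc02g089510 (66 bp) and Solyc02g089530 (84 bp), had 0 reads in all 8 libraries. The read lengths stated for these libraries are 50 bp and 100 bp. Reads of 100 bp are longer than both genes, and reads of 50 bp have little room in them. The 0 therefore says little about the level of these 2 genes. Of the 22 neighbors, 11 passed the filter, and of these 6 were higher, 3 were lower and 2 were not called (edgeR, adjusted p of 0.05 or less), beside 21.5% called over all genes tested. Whether neighbors and members differ in this was not tested. The median log2 fold change of the 11 neighbors was 0.41, beside 0.01 over all genes tested. These 11 had 139 to 7506 reads in all, and 92.3% to 100% of their reads were unique.

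The largest rise among the neighbors was that of Solyc02g089630, which went from 11.2 ± 2.64 to 46.8 ± 16.2 CPM (mean ± SD over 4 libraries). Its log2 difference was 2.07 (SE 0.281 by edgeR, adjusted p = 0.00118). The largest fall was that of Solyc02g089420, which went from 3.03 ± 0.425 to 0.956 ± 0.532 CPM (mean ± SD over 4 libraries). Its log2 difference was -1.64 (SE 0.351 by edgeR, adjusted p = 0.00939). The nearest tested neighbors on either side, Solyc02g089440 and Solyc02g089550, were 1.40-fold and 1.33-fold higher (adjusted p = 0.00374 and 0.0248, edgeR). The tested neighbors with fewest reads were Solyc02g089420 with 139 reads, which was called, and Solyc02g089570 with 230 reads, which was not (log2 difference -0.35, adjusted p = 0.623, edgeR).

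**Figure D4:**
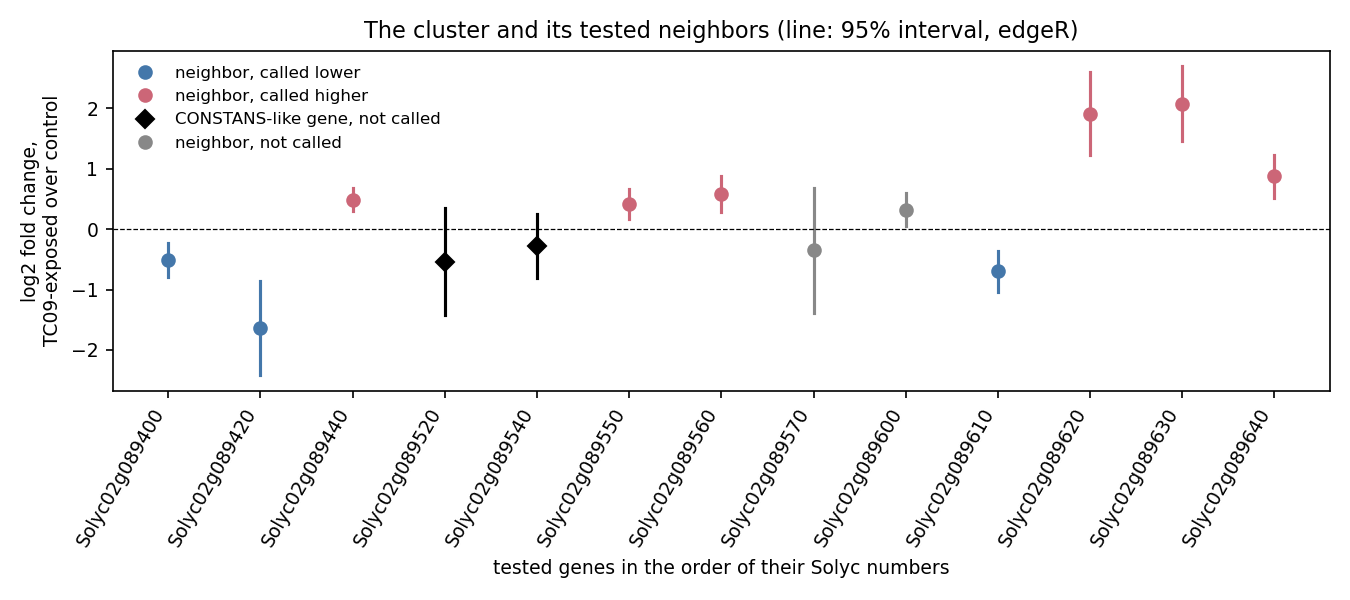
Log2 fold change (TC09-exposed over control, with the 95% interval of the edgeR fit) of the tested genes numbered Solyc02g089400 to Solyc02g089640, in the order of their numbers. The black diamonds are Solyc02g089520 and Solyc02g089540, whose intervals include 0. Of the 11 neighbors, 9 were called, beside 21.5% of all genes tested. Whether neighbors and members differ in this was not tested.

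The genes with the profile most like that of each member were found by the root mean square difference of log2 CPM over the 8 libraries, each gene centered on its own mean. For Solyc02g089540, whose own profile varied by 0.336 about its mean, they were Solyc12g096610 (0.127), Solyc04g077590 (0.140) and Solyc06g053700 (0.145). For Solyc02g089520, which varied by 0.533, they were Solyc01g097940 (0.218), Solyc01g073700 (0.248) and Solyc06g084030 (0.249). These are the smallest distances in a search over all genes tested, on 8 libraries with few reads of the members. The matches were not tested and are a description only. The profiles of Solyc02g089540 and Solyc02g089520 differed from each other by 0.651. Of the genes tested, 16957 were closer to Solyc02g089540 than Solyc02g089520 was, and 13219 were closer to Solyc02g089520 than Solyc02g089540 was. A gene with a flat profile would lie 0.336 from Solyc02g089540 and 0.533 from Solyc02g089520, both under 0.651. Steady genes therefore enter these counts whatever their pattern, and the counts do not show that the 2 members are unusually unlike. With 9 reads, Solyc02g089500 has no profile that could be compared.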

How the data were processed

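RNA of shoot tips was measured in 8 libraries. The group of each was taken from the exposure tag of the labels, since their treatment text describes unexposed culture for all 8. The labels share no replicate number between groups. The authors trimmed the reads, mapped them to tomato in CLC Genomics Workbench 10 with default settings, and deposited whole-number counts of total and unique gene reads. No source used here names the annotation release. TPM as deposited by the authors (total reads per coding length, scaled to a fixed sum) served only to compare levels between genes. How CLC assigns a read that matches several genes affects total but not unique reads.

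Counts were tested with edgeR 4.0.16 (R 4.3.3): filterByExpr defaults, TMM (factors 0.938 to 1.10), a quasi-likelihood fit on condition alone, and Benjamini-Hochberg adjustment over all genes tested. Members below the filter were taken from the same fit on every gene with at least 1 read. The log2 ratio of members used a pseudocount of 0.5. The edgeR procedure was tried on simulated counts, and the permutation test only on small made-up sets of values. Alternatives were RLE size factors, library size only, no filter, a minimum mean of 50 reads, leaving out the 2 genes over 1% of a library, DESeq2 1.42.0, limma-voom (limma 3.58.1), unique reads, an adjusted p of 0.01, pseudocounts of 0.1 and 2, and leaving out each library. Before TMM normalization, 1 CPM is under 10 reads in every library.

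The text names every member, genes numbered between them, the most changed and nearest tested neighbors, and the 3 genes of most similar profile per member. The nearest neighbors were added after their values were seen. Members and lists were chosen with earlier results of these data known. The reference table used here holds tobacco genes and no Solyc numbers, so other genes of the photoperiod pathway were not analysed here, and no sequences are shown.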

Additional observations from a re-analysis of the deposited data

Results flagged for a closer look

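Among the 4 TC09-exposed libraries, replicate 1 stood apart in the share of unique reads of Solyc02g089540. There 53.1% of the reads were unique, and the nearest other exposed library had 66.7%. Its distance from the nearest library is 0.886 of the range of the group, above the critical value of Dixon's test at 95%, which chance exceeds in about 1 group of 20. The share rests on 26 unique reads of 49. The same check covered the CPM, the CPM of unique reads, the unique share and the TPM of each member in each group. The unique share of Solyc02g089500 could not be checked, being equal in all control libraries and undefined in exposed replicate 4. The check flagged only this value. It was not corrected for the number of groups screened, so a flag of this kind can arise by chance.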

How the results depend on the processing

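No member was called under any alternative run, and the log2 fold changes of Solyc02g089540 and Solyc02g089520 stayed below 0 in all of them. Leaving out 1 library at a time, Solyc02g089540 ranged from -0.42 to -0.11 in total reads (adjusted p 0.299 to 0.761, edgeR) and from -0.47 to -0.19 in unique reads. Solyc02g089520 ranged from -0.80 to -0.15 (adjusted p 0.152 to 0.830) and from -0.74 to -0.35. Solyc02g089500 ranged from -0.13 to 0.55 in total and in unique reads, its sign turning without exposed replicate 1 or 2. The difference in the log2 ratio of Solyc02g089540 to Solyc02g089520 ranged from -0.33 to 0.35, with the sign turning without control replicate 1 or 3 or exposed replicate 1 or 2. Under the other alternatives Solyc02g089540 lay between -0.34 and -0.17, Solyc02g089520 between -0.56 and -0.33 and Solyc02g089500 between 0.17 and 0.26. A mean of at least 50 reads left no member to test. DESeq2 gave no adjusted p for Solyc02g089500. Over all genes, 1732 were called at an adjusted p of 0.01 or less, and leaving out 1 library gave 2636 (control replicate 1) to 5438 (exposed replicate 2), with 2648 without control replicate 3 and 2741 without exposed replicate 1. Under scaling by library size alone the median log2 difference over all genes was 0.11 in place of 0.01. Of the neighbors, 7 to 9 were called without 1 library. No paired analysis was possible because the labels give the groups no shared replicate numbers. Low read numbers limit every value given for the cluster.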
